A study of Mus musculus with 9 samples.

Results

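The 10 genes described here encode the NF-κB transcription factors and inhibitors and feedback proteins of their pathway. They were taken as a list of names by their role in the pathway, with no threshold on measured values, though earlier results of these data were known when the list was made. All 10 are among the 29995 genes of the deposited expression table without immunoglobulin (Ig) genes, and all 10 passed the filter on low values, as did 12892 genes in all. There are 5 subunit genes (Nfkb1, Nfkb2, Rel, Rela and Relb) and 5 genes of inhibitors and feedback proteins (Nfkbia, Nfkbie, Bcl3, Tnfaip3 and Traf1).

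RNA-seq was performed on 9 libraries of B-lineage cells from the spleens of B6.Blimp1+/GFP mice, in which 1 Prdm1 allele carries GFP as a reporter of Blimp1. All mice were 12 weeks old and had received 50 µg NP-LPS (lipopolysaccharide carrying nitrophenyl groups as the hapten) by intraperitoneal injection 4 days before. Cells positive for CD4, CD8α, F4/80 or Ter-119 were gated out in all 3 groups, and each group has 3 libraries. Naive B cells were IgD high, B220+ and NP-, and they too came from immunized mice, so no group is from an unimmunized animal. NP-specific B cells, called NP+ B cells here, were IgD-, GFP-, CD138-, B220+ and NP+. Plasma cells (PCs) were IgD-, GFP+, CD138+ and NP+, with or without B220. The 3 libraries of a group are biological replicates per the study's design text.

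NF-κB factors are dimers of Rel-domain proteins. In resting cells IκB proteins bind them and keep them out of the nucleus, and signals from the B cell receptor, Toll-like receptors or CD40 lead to destruction of the IκB so that the dimers can bind κB sites in DNA. In the canonical route the kinase IKKβ acts on the IκB bound to dimers with Rel or RelA. In the alternative route the kinase NIK, encoded by Map3k14, leads to processing of the Nfkb2 product that pairs with RelB. Several genes of inhibitors, among them Nfkbia and Tnfaip3, are known targets of NF-κB itself, which makes a feedback loop. LPS is a classical inducer of this pathway in B cells, through Tlr4.

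Because some of these genes are known to carry κB sites near their starts, the promoter sequences were read from RefSeq (assembly GRCm38.p6) for the 8 members that matched by symbol. Each window ran from 250 bases before to 50 bases after an annotated gene start, and both strands were searched for the κB consensus of 10 bases. At least 1 window held a match for 6 of the 8 members (75.0%), against 1388 of all 27025 genes with a promoter sequence (5.14%). Matches lay before a start in Nfkb2, Rel, Nfkbie, Nfkbia and Tnfaip3 and just inside the gene in Bcl3 and, from another of its starts, in Nfkb2, and the windows of Rela and Traf1 held none. A match is a description of the letters and does not show that a factor binds there. The 4 upstream sequences below are printed 5′ to 3′ on the strand of the gene because Rel and Nfkb2 stand for the pattern of the subunits and Nfkbia and Traf1 depart from it. Capitals mark κB consensus matches on either strand, and overlapping matches are merged.
Nfkbia (chr12:55492648-55492897, minus strand): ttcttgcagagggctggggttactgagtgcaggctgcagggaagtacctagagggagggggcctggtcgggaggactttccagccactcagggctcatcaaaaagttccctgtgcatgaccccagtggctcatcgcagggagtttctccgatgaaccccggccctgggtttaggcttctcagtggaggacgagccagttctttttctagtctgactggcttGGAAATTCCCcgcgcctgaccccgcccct
Rel (chr11:23770970-23771219, minus strand): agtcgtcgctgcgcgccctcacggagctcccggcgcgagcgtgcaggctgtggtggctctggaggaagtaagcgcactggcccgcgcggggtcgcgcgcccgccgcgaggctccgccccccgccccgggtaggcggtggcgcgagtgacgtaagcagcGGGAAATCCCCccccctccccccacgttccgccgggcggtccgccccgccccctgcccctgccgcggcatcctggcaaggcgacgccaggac
Nfkb2 (chr19:46304487-46304736, plus strand): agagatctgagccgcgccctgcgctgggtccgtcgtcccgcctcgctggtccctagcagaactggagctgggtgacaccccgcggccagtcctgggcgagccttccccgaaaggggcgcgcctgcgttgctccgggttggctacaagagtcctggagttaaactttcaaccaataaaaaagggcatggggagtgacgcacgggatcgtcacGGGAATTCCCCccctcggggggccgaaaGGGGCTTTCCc
Traf1 (chr2:34961773-34962022, minus strand): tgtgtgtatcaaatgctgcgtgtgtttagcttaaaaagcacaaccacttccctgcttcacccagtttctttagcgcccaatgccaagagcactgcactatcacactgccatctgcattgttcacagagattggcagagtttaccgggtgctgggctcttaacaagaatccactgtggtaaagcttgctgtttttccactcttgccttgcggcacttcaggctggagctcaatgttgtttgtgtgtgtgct
In Nfkbia the match began 29 bases and ended 20 bases before the start, and in Rel the merged match ran from 92 to 82 bases before it. Nfkb2 had separate matches at 39 to 29 and at 11 to 2 bases before the first of its 3 annotated starts. Its other windows held a match as well.

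Expression levels are TPM, which is corrected for transcript length, from the table without Ig genes unless stated. The libraries without Ig genes held 28490300 to 31719400 estimated reads in naive cells, 34918400 to 38602300 in NP+ B cells and 20189900 to 22137400 in PCs. The members had from 63 estimated reads (Bcl3 in PC replicate 3) to 13939 (Nfkbia). The sorted identity was visible in the marker lists. The summed TPM of 6 B cell markers was 8446 to 8760 in naive cells, 6301 to 6778 in NP+ B cells and 1497 to 1568 in PCs, and that of the 6 PC markers found of 7 listed was 142.8 to 167.4, 191.7 to 205.6 and 6103 to 7422. Some libraries also held transcripts listed as markers of other cell types, and the source of these was not tested. PC replicate 3 had a summed TPM of 4742 for 8 liver genes, against 2.50 to 27.8 in the other libraries, and 124.2 for the 7 macrophage and monocyte markers found of 8 listed. That macrophage sum was 34.9 and 46.8 in the other PC libraries, 52.1 to 69.0 in NP+ B cells and 6.13 to 7.29 in naive cells, with Csf1r at most 2.31 TPM in any library. In NP+ B cells Cd68 made up most of it (67.6, 45.0 and 60.1 TPM), and C1qa, C1qb and C1qc were at most 0.0651 there. The 5 dendritic cell markers summed to 7.48 to 8.01 in naive cells, 21.1 to 23.5 in NP+ B cells, where Flt3 had 15.8 to 19.4, and 7.69 to 9.50 in PCs. NP+ B cell replicate 2 had 53.5 for 6 neutrophil markers, against 0.495 and 1.75 in the other libraries of its group, and PC replicate 3 had 34.0, against 6.54 and 6.78. The summed TPM of 8 T cell markers was 56.9 to 65.0 in naive cells, 25.0 to 59.9 in NP+ B cells and 112.1 to 146.0 in PCs, with Cd28 at 133, 142 and 105 in PCs, Lck at 49.5 to 56.7 in naive cells and Cd3e at most 1.15 in any library. Trac was listed at 0 in all 9. The part of these transcripts in the results was not tested.

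**Figure D1:**
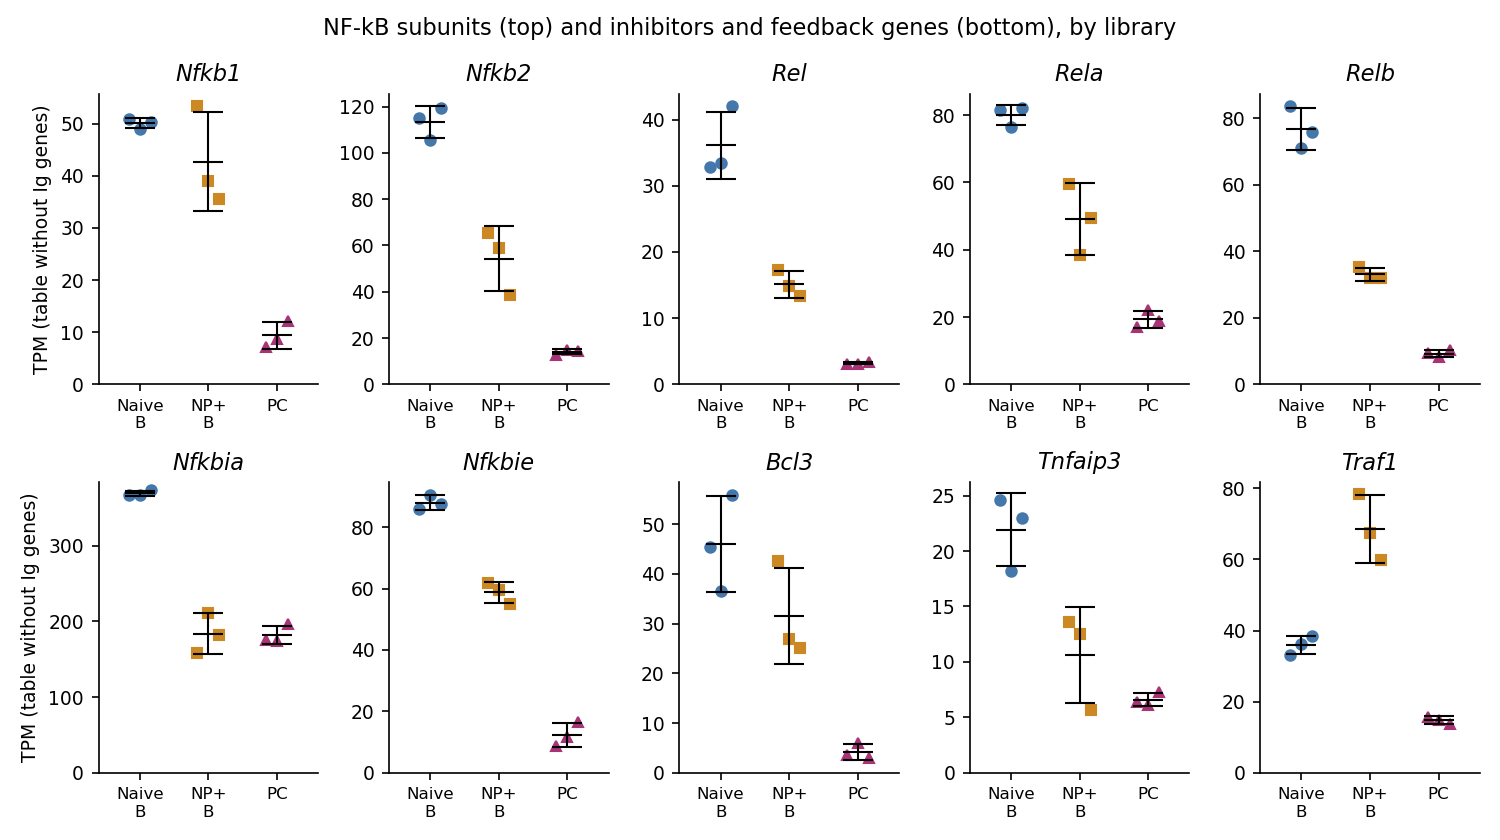
TPM of the 10 genes (y axis, from 0) in each library, by group (x axis). Points are the 3 libraries of a group and black bars are mean ± SD; 8 of the 10 genes had all 3 PC libraries below all NP+ B cell libraries, and Nfkbia and Tnfaip3 did not.

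The first comparison asked how the family differs between antigen-specific activated B cells and naive cells at day 4. A gene was called different when limma gave an adjusted p-value under 0.05 and the change exceeded 2-fold, and by this rule 5 of the 10 genes were lower in NP+ B cells and 0 were higher. At an unadjusted limma p-value under 0.05, 8 were lower and 1 higher, and with the authors' log2 values 4 were called lower and 0 higher. The count rests in part on the scaling and on 1 library. With median-of-ratios scaling 2 were called lower (Rel and Relb) and 1 higher (Traf1), since Nfkb2 (-0.98), Nfkbia (-0.91) and Tnfaip3 (-0.99) lay just under the 2-fold limit, and without NP+ B cell replicate 3 the counts were 3 lower and 1 higher. Over all 12892 genes tested, 10.4% were called lower, 8.13% higher and 18.5% in either direction. The median log2 change was -0.88 over the 10 genes and -0.16 over all genes tested. The groups did not overlap for 8 members, with 7 lower and 1 higher, while 55.9% of all genes tested did not overlap (32.4% lower and 23.6% higher).

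Among the subunits Rel, Relb and Nfkb2 were called lower, with log2 changes close to each other. Rel (chromosome 11, 23736847 to 23770970, minus strand), the c-Rel subunit needed for B cell proliferation, had a TPM of 32.8, 33.5 and 42.0 in naive cells, 17.2, 14.8 and 13.3 in NP+ B cells and 3.12, 3.13 and 3.38 in PCs. Each step left the libraries of the groups fully apart. Its log2 change from naive to NP+ B cells was -1.24 ± 0.15 (SE, limma adjusted p = 0.0001378). Relb (chromosome 7, 19606217 to 19629438, minus strand), the partner of the processed Nfkb2 product, had 83.6, 70.9 and 75.7 in naive cells, 35.3, 31.9 and 31.9 in NP+ B cells and 9.27, 8.20 and 10.2 in PCs. The order of the groups was the same as for Rel, with no overlap. Relb fell by 1.21 ± 0.12 on the log2 scale between naive and NP+ B cells (limma adjusted p = 2.569e-05).

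Nfkb2 (chromosome 19, 46304320 to 46312385, plus strand), the precursor processed in the alternative route, had a TPM of 115, 106 and 119 in naive cells, 65.2, 59.1 and 38.7 in NP+ B cells and 12.7, 14.8 and 14.4 in PCs. NP+ B cell replicate 3 was the lowest of its group, and there Nfkb2 was below Rela, while in the other B cell libraries it was the most abundant subunit. The log2 change was -1.09 ± 0.16 (SE, limma adjusted p = 0.000443), and without that library it was -0.87, under the 2-fold limit. Nfkb2 is overlapped on the other strand by Psd, which had at most 6.11 TPM in any library, and whether reads were assigned by strand is not given in the sources used here.

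Rela (chromosome 19, 5637483 to 5648130, plus strand), the main activating subunit of the canonical route, had a TPM of 81.6, 76.6 and 82.1 in naive cells, 59.6, 38.5 and 49.4 in NP+ B cells and 17.2, 22.1 and 18.8 in PCs. All NP+ B cell libraries were below all naive libraries, but the difference was smaller than 2-fold. Its log2 change was -0.73 ± 0.15 (SE, limma adjusted p = 0.003027). Nfkb1 (chromosome 3, 135584655 to 135691547, minus strand), which encodes the precursor of the most common dimer partner, had 50.9, 49.1 and 50.2 in naive cells, 53.5, 39.1 and 35.6 in NP+ B cells and 7.22, 8.75 and 12.2 in PCs. The naive and NP+ libraries of Nfkb1 overlapped, since NP+ B cell replicate 1 was the highest of all 9. The log2 change was -0.26 with a 95% interval of -0.62 to 0.11 (limma adjusted p = 0.2354).

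The inhibitors and feedback genes did not move as one. Nfkbia (chromosome 12, 55489410 to 55492647, minus strand) encodes IκBα, the inhibitor that is resynthesized after each round of activation, and was the most abundant member in every group. It had a TPM of 367, 368 and 373 in naive cells, 158, 212 and 182 in NP+ B cells and 175, 174 and 196 in PCs. Naive libraries were the highest and differed little among themselves, and the other groups overlapped. Nfkbia changed by a log2 of -1.02 ± 0.11 between naive and NP+ B cells (SE, limma adjusted p = 4.187e-05), which is a fold of 2.03. This call lay at the limit, and it was lost without NP+ B cell replicate 1 (-0.92). It was also lost with estimated counts and with the authors' log2 values (-0.99 for both).

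Nfkbie (chromosome 17, 45555703 to 45563169, plus strand), which encodes IκBε, had a TPM of 85.9, 90.6 and 87.4 in naive cells, 61.8, 59.5 and 55.1 in NP+ B cells and 8.71, 11.8 and 16.5 in PCs. The 3 groups were fully separate in this order. Between naive and NP+ B cells it differed by -0.59 ± 0.14 on the log2 scale (SE, limma adjusted p = 0.006213), under the 2-fold limit. Bcl3 (chromosome 7, 19808462 to 19822770, minus strand), a nuclear IκB protein that can act as a coactivator, had 45.5, 36.5 and 55.8 in naive cells, 42.6, 26.9 and 25.1 in NP+ B cells and 3.50, 5.96 and 2.98 in PCs. The naive and NP+ libraries of Bcl3 overlapped, and the log2 change of -0.56 ± 0.23 did not pass the test (SE, limma adjusted p = 0.06563).

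Tnfaip3 (chromosome 10, 19000910 to 19015657, minus strand) encodes a ubiquitin-editing enzyme that ends signalling to NF-κB. Its TPM was 24.6, 18.2 and 23.0 in naive cells, 13.6, 12.5 and 5.67 in NP+ B cells and 6.38, 6.14 and 7.31 in PCs. NP+ B cell replicate 3 was the lowest of all libraries, and the log2 change was -1.10 ± 0.27 with it (SE, limma adjusted p = 0.007791) and -0.72 without it. Traf1 (chromosome 2, 34941750 to 34961772, minus strand) encodes an adaptor of the TNF receptor family. It had 33.2, 36.1 and 38.4 in naive cells, 78.5, 67.4 and 59.8 in NP+ B cells and 15.8, 15.0 and 13.7 in PCs. Traf1 was thus the only one of the 10 genes whose NP+ B cell libraries were all above the naive ones. Its log2 change was 0.91 ± 0.13 (SE, limma adjusted p = 0.0003433), a fold of 1.88 and so under the limit of the call. It reached 1.00 without NP+ B cell replicate 3 and 1.02 with median-of-ratios scaling, and was called in both cases.

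**Figure D2:**
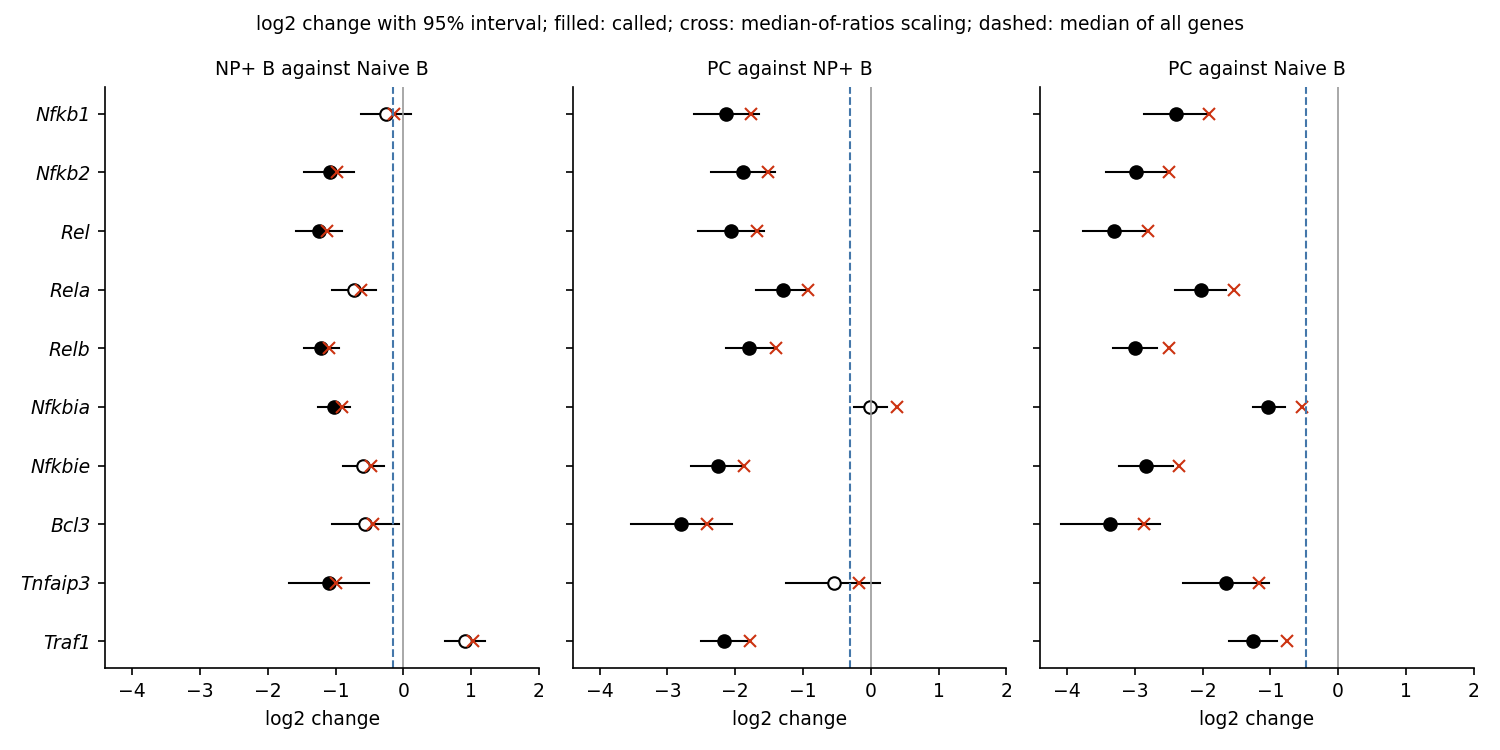
The log2 change (x axis) of the 10 genes in the 3 comparisons, with 95% intervals from limma. Filled points passed the adjusted p-value and the 2-fold limit, the dashed line is the median of all genes tested (-0.16, -0.30 and -0.47) and red crosses show the value with median-of-ratios scaling, where Rela (PC against NP+ B cells) lay at -0.93 and Nfkbia at 0.38.

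The second comparison asked how the family differs between PCs and NP+ B cells, both antigen-binding. Of the 10 genes, 8 were called lower in PCs and 0 higher (also 0 higher at an unadjusted p-value under 0.05 and with the authors' log2 values in limma), against 22.3% called lower, 9.93% called higher and 32.2% called either way over all genes tested. The same 8 had no PC library that reached the lowest NP+ B cell library, while 58.2% of all genes tested had groups without overlap (40.9% lower and 17.3% higher). The members' median log2 change was -1.98 and that of all genes tested was -0.30. This comparison and the other comparisons share groups and are not independent of each other.

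All 5 subunits were lower in PCs. The log2 change was -2.13 ± 0.22 for Nfkb1 (SE, limma adjusted p = 1.134e-05) and -2.06 ± 0.22 for Rel (limma adjusted p = 1.628e-05). It was -1.89 ± 0.21 for Nfkb2 and -1.79 ± 0.16 for Relb. Rela had the smallest reduction of the 5, at -1.30 ± 0.18 (SE, limma adjusted p = 0.0001022), and its call was lost with median-of-ratios scaling (-0.93) and with quantile normalization (-0.83). Nfkb1, whose libraries overlapped between the B cell groups, was at 22.0% of its NP+ B cell mean in PCs.

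Of the inhibitors and feedback genes, Bcl3 had the largest reduction of all 10 members, at -2.80 ± 0.34 on the log2 scale (SE, limma adjusted p = 3.99e-05). Nfkbie followed with -2.25 ± 0.18 and Traf1 with -2.16 ± 0.15 (limma adjusted p = 6.148e-07), and all PC libraries of Traf1 were also below its naive libraries. In contrast, Nfkbia had a log2 change of -0.01 with a 95% interval of -0.25 to 0.24 (limma adjusted p = 0.9735). Tnfaip3 had -0.55 with an interval of -1.25 to 0.14 (limma adjusted p = 0.1625). The interval of Nfkbia excludes a 2-fold change in either direction on this scale, and that of Tnfaip3 does not exclude a 2-fold reduction.

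The result for Nfkbia depends on what its level is measured against. Ig genes and transcripts left out with them took 70.0 to 72.2% of TPM in PC libraries, 9.64 to 11.6% in NP+ B cells and 6.32 to 6.49% in naive cells. These shares were read from the rescaling of TPM between the full table and the table without Ig genes. The full table does not list all of these transcripts. In the full table Nfkbia had a TPM of 344, 344 and 350 in naive cells, 140, 190 and 164 in NP+ B cells and 52.3, 48.4 and 58.8 in PCs. The columns of that table, as deposited, sum to 671549.8 to 699884.9 in PCs and 902902.1 to 912982.2 in NP+ B cells. The fit scaled each library to its sum. On that scale the log2 change of Nfkbia between PCs and NP+ B cells was -1.21 (limma adjusted p = 1.198e-05), smaller than the unscaled TPM give. The median of all genes moved to -1.27. Tnfaip3 was called lower as well, with -1.54, so all 10 genes were called lower in PCs with the Ig genes of the full table kept, as were 59.7% of all genes tested in that table.

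Genes that respond within minutes to cell handling and acute stimulation also differed between these groups. The summed TPM of 13 such genes was 910.1 to 1005 in naive cells, 387.9 to 521.3 in NP+ B cells and 1534 to 1747 in PCs. Of the 11 tested, 8 (72.7%) were called higher in PCs than in NP+ B cells and 2 (18.2%) lower, beside 9.93% and 22.3% over all genes tested. Fosb, an AP-1 subunit among the 8, passed the filter on low values through its PC libraries alone (at most 0.976 TPM in the other groups) and so could only come out higher in PCs, and its call says nothing beyond that. In the full table with columns as deposited, Ier2 and Btg2, which are among the 8, had lower means in PCs (57.4 against 61.1 and 84.7 against 120.2), as did Dusp1. Those columns sum to less in PCs, so the direction for Ier2 and the size for Btg2 and Dusp1 depend on scaling to those sums. Between the B cell groups 4 of the 11 (36.4%, beside 10.4%) were lower in NP+ B cells, namely Jun, Ier2, Nr4a1 and Zfp36, in the comparison in which Nfkbia and Tnfaip3 were also lower. Fos, a subunit of the AP-1 factor, had a TPM of 43.8, 34.9 and 40.9 in NP+ B cells and 671, 654 and 645 in PCs. Nfkbia can respond to the same kind of stimulus, and the part of handling in its level was not tested.

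Between PCs and naive cells, all 10 genes were called lower in PCs and none had overlapping libraries. Over all genes tested, 26.3% were called lower, 11.4% higher and 37.8% either way, and 69.7% did not overlap (48.7% lower and 21.0% higher). The median log2 change was -2.61 over the 10 genes and -0.47 over all genes. The largest reductions were those of Bcl3, with -3.36 ± 0.33 (SE, limma adjusted p = 6.898e-06), and Rel, with -3.30 ± 0.21 (limma adjusted p = 2.138e-07). Mean TPM in PCs was 9.03% of the naive mean for Bcl3 and 8.89% for Rel. Relb, Nfkb2, Nfkbie, Nfkb1 and Rela followed with log2 changes of -3.00, -2.98, -2.84, -2.39 and -2.03. The smallest were Tnfaip3 (-1.66 ± 0.29), Traf1 (-1.25 ± 0.16) and Nfkbia (-1.03 ± 0.11, limma adjusted p = 1.082e-05). With median-of-ratios scaling Nfkbia had -0.54 and Traf1 -0.76 in this comparison, both under the 2-fold limit, so these calls rest on the scaling. Traf1 was also under it with quantile normalization (-0.79). The Nfkbia change was under it with estimated counts and with the authors' log2 values (-0.93 for both). Without PC replicate 2 the Nfkbia change lay just under the 2-fold limit.

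Because a share within a library does not depend on how the library is scaled, the make-up of the subunits was compared next. The summed TPM of the 5 subunits was 364.1, 335.9 and 369.3 in naive cells, 230.8, 183.3 and 168.9 in NP+ B cells and 49.5, 57.0 and 59.0 in PCs. The most abundant subunit was Nfkb2 in naive cells and Rela in PCs. In NP+ B cells Nfkb2 had the highest mean, but Rela was above it in replicate 3 and their ranges overlapped. In bulk RNA, fewer cells with a transcript and less of it per cell cannot be told apart.

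The share of Rela was 22.4, 22.8 and 22.2% in naive cells, 25.8, 21.0 and 29.2% in NP+ B cells and 34.7, 38.8 and 31.8% in PCs. PC libraries had the highest shares, above both other groups. The difference between PCs and NP+ B cells was 9.77 percentage points, and between PCs and naive cells 12.6 points (two-sided exact permutation p = 0.1 for both, the smallest value that 3 against 3 libraries allow, and 0.15 after adjustment over 15 tests). Rel had its highest share in naive cells and its lowest in PCs, with means of 10.1% ± 1.19, 7.80% ± 0.301 and 5.84% ± 0.41 (SD, n = 3, exact permutation p = 0.1 in each of the 3 comparisons). Nfkb1 was relatively most abundant in NP+ B cells, at 21.9% ± 1.14 against 14.1% ± 0.507 in naive cells and 16.9% ± 3.34 in PCs. The share of Relb differed from that of naive cells by -4.33 points in NP+ B cells and -4.71 points in PCs, with no overlap, and did not separate the NP-binding groups. The share of Nfkb2 differed by -6.45 points between PCs and naive cells and overlapped in the other comparisons.

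**Figure D3:**
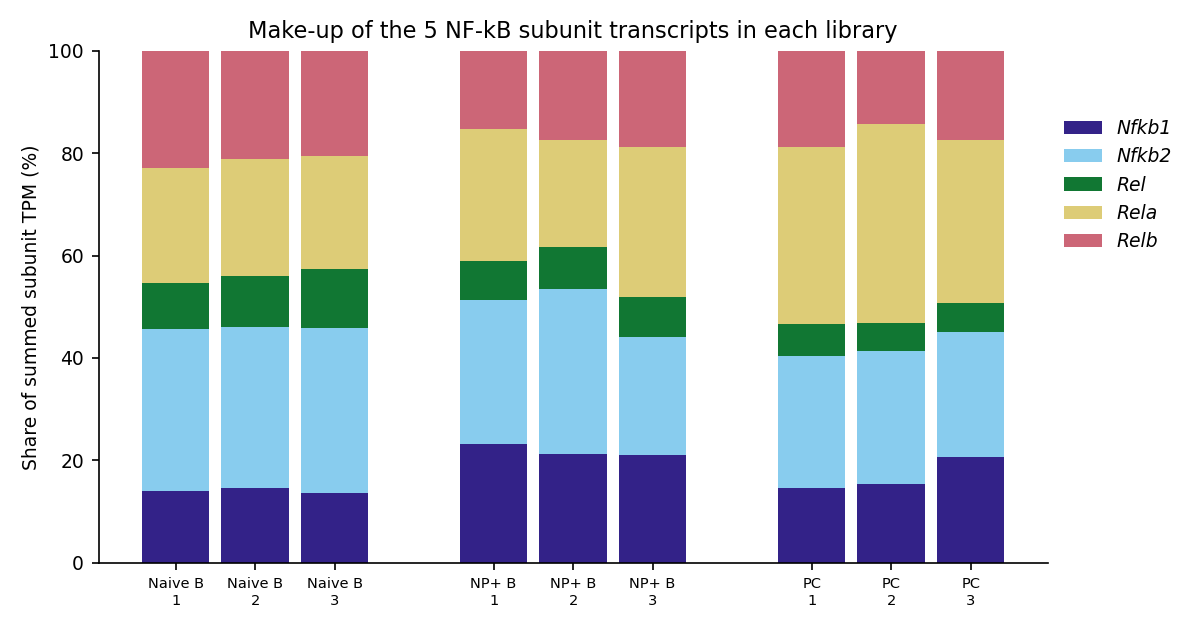
Share of each subunit in the summed TPM of the 5 NF-κB subunits (y axis, percent) in each library (x axis, replicates 1 to 3 of each group). Rela took 31.8 to 38.8% in PC libraries and at most 29.2% in the others, and the share of Rel was lowest in PCs.

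Ratios of 2 members, mostly an inhibitor to a subunit, were computed within each library. The ratio of Nfkbia to Rela was 4.49 to 4.80 in naive cells, 2.65 to 5.50 in NP+ B cells and 7.86 to 10.4 in PCs. All PC libraries were above all others. On the log2 scale PCs differed from NP+ B cells by 1.32 and from naive cells by 1.03 (two-sided exact permutation p = 0.1 for both, the smallest value possible, and 0.3 after adjustment over 12 tests). The ratio of Nfkbie to Rel was 2.08 to 2.70 in naive cells, 3.59 to 4.15 in NP+ B cells and 2.80 to 4.87 in PCs, so it was higher than naive in both NP-binding groups (log2 differences of 0.67 and 0.60, exact permutation p = 0.1). Nfkb2 to Relb, the pair of the alternative route, was 1.38 to 1.58, 1.21 to 1.85 and 1.37 to 1.80, and all groups overlapped. Tnfaip3 to Rela was 0.238 to 0.301, 0.115 to 0.326 and 0.277 to 0.389 and overlapped as well. These are ratios of transcripts per length, not of proteins.

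**Figure D4:**
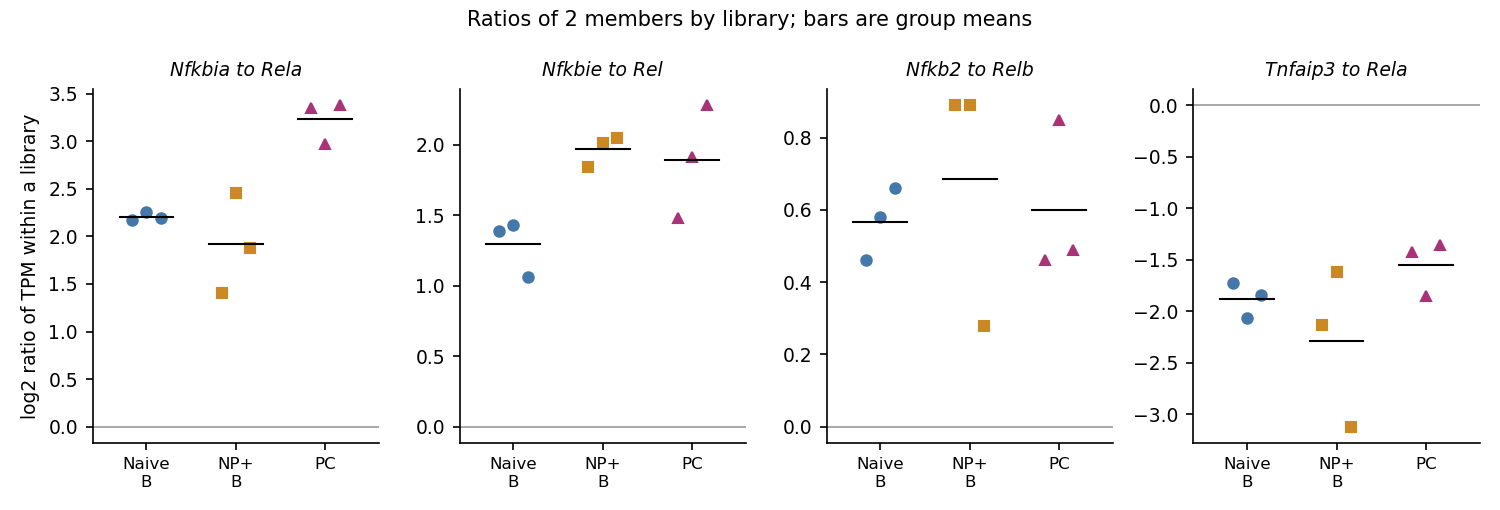
The log2 ratio of TPM of 2 members within each library (y axis) by group (x axis). Points are libraries and bars are group means; the ratio of Nfkbia to Rela has means of 2.21, 1.92 and 3.24 in naive cells, NP+ B cells and PCs, and the PC libraries lie above the rest.

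The order of the members by level also differed. In naive cells Nfkbia was followed by Nfkb2, Nfkbie, Rela and Relb, of which Rela and Relb overlapped, and Tnfaip3 was lowest with a mean TPM of 21.9. In NP+ B cells Traf1 was second to Nfkbia, with a mean TPM of 68.6, and overlapped with Nfkbie. In PCs Nfkbia had a mean TPM of 182 and the next member, Rela, 19.4. Rel was the lowest member in PCs with a mean TPM of 3.21, which overlapped with Bcl3 at 4.15.

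Patterns across the 9 libraries were compared as the root mean square difference of centred log2 (TPM + 0.5), as a description. Among the members Nfkb2 and Rel were most alike (0.193), followed by Rel and Relb (0.195) and Nfkb2 and Relb (0.203), and Nfkbia and Bcl3 were least alike (1.29). Among 7249 genes with a mean TPM of at least 10, the gene most like Relb was Jak1 (0.101), a kinase of cytokine receptors, and the gene most like Nfkb2 was Stat6 (0.127), which was also second for Rel behind Irf2bpl (0.119). For Rela they were Ano6 and Ing5, and for Nfkb1 1110007C09Rik and Nsmce1. Nfkbia was most like Pcid2 (0.110) and Traf1 was most like Capzb (0.140), an actin-capping subunit with mean TPM of 539, 1000.0 and 257 in the 3 groups. For Bcl3 they were Pold1 and Nod1, and for Tnfaip3 Heatr1 and Ezh1. The second genes for Nfkb2, Relb, Nfkbia and Traf1 were Klhl36, Calhm2, Gm9843 and Bcap29.

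The rest of the pathway was counted over 70 tested genes in 7 lists. Between naive and NP+ B cells 7 (10%) were called higher and 9 (12.9%) lower, close to the 8.13% and 10.4% over all genes tested. In PCs against NP+ B cells 5 (7.14%) were higher and 34 (48.6%) lower, beside 9.93% and 22.3% over all genes. Against naive cells 4 (5.71%) were higher and 38 (54.3%) lower in PCs, beside 11.4% and 26.3%. The counts of single lists below are to be read against the same shares. Among the lower calls are Ccl4, in both comparisons with naive cells, and Tnip3, in PCs against NP+ B cells. Each passed the filter on low values only through the group where it was high, so it could only be lower.

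The routes that lead to NF-κB were described by their called genes, and genes that drive or restrain a route were counted alike. Of 7 tested genes of the alternative route 3 were called lower in NP+ B cells (42.9%, beside 10.4% over all genes tested), with Birc3 (-1.41 ± 0.11), a ubiquitin ligase, Map3k14 (-1.21 ± 0.17) and Traf3 (-1.14 ± 0.20). In PCs against NP+ B cells 5 of 7 were lower (71.4%, beside 22.3%). Cd40, the receptor for T cell help, had a TPM of 174, 150 and 146 in NP+ B cells and 2.73, 1.76 and 4.14 in PCs, which is -5.60 ± 0.24 on the log2 scale (SE, limma adjusted p = 1.367e-08). Tnfrsf13c, the receptor of the survival factor BAFF, had a log2 change of -1.40 ± 0.10. Against naive cells 6 of the 7 were lower in PCs.

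Of 8 genes of the antigen receptor route, Prkcb alone was called higher in NP+ B cells, but its libraries were far apart, with a TPM of 388, 55.5 and 206 against 37.8, 36.6 and 36.2 in naive cells. In PCs 3 of 8 were lower than in NP+ B cells, among them Prkcb (-5.98 ± 1.12) and Malt1 (-1.82 ± 0.19), a protease that acts between the receptor and IKK. Bcl10, a partner of Malt1, was lower in PCs than in naive cells (-1.23 ± 0.11), and 4 of 8 were lower there. Of 6 genes of the IKK complex and the linear ubiquitin ligase, 0 were called between the B cell groups, with log2 changes of -0.99 to -0.19 in limma, and the authors' log2 values also gave 0. At an unadjusted p-value under 0.05, 5 of the 6 were lower in NP+ B cells. Ikbkb, which encodes IKKβ, and Rbck1 were lower in PCs than in NP+ B cells, by log2 changes of -1.69 ± 0.11 and -1.91 ± 0.13. Rnf31 was called lower in PCs when these were set against naive cells (-1.22 ± 0.20).

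Of 11 genes of the Toll-like receptor route, Ly96, which encodes the LPS-binding partner of Tlr4, was called higher in all 3 comparisons. Its TPM was 16.7, 20.9 and 25.5 in naive cells, 45.8, 73.8 and 53.4 in NP+ B cells and 118, 119 and 134 in PCs. The groups did not overlap, and the difference was 1.42 ± 0.21 between the B cell groups and 1.12 ± 0.17 between PCs and NP+ B cells on the log2 scale (SE, limma adjusted p = 0.0003834 and 0.0001973). In the full table, with Ig genes and columns as deposited, Ly96 was instead lower in PCs than in NP+ B cells (mean TPM of 36.1 against 51.6). Those columns sum to less in PCs, so the size of this difference depends on whether they are scaled to their sums. Irak1, a kinase downstream of Myd88, was also higher in NP+ B cells (1.29 ± 0.17) and Irak2 lower (-1.70 ± 0.17). In PCs 6 of the 11 were lower than in NP+ B cells, with Ly86 (-3.89 ± 0.14), Tlr9 (-2.51 ± 0.29), Cd180 (-2.48 ± 0.17) and Irak4 (-1.67 ± 0.16) the most reduced. Against naive cells 5 of the 11 were lower in PCs.

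Among the 3 other IκB genes, Nfkbid, a nuclear IκB protein, had a TPM of 93.9, 84.5 and 99.5 in naive cells, 71.6, 57.6 and 39.6 in NP+ B cells and 7.63, 5.27 and 6.20 in PCs. It was called lower in PCs in both comparisons (-3.02 ± 0.28 and -3.78 ± 0.27), and Nfkbib and Nfkbiz were not called in any. Of 13 other negative regulators, 1 was lower in NP+ B cells (Zc3h12a, an RNase, -1.91 ± 0.26), 4 were lower in PCs than in NP+ B cells and 5 were lower in PCs than in naive cells, or 7.69%, 30.8% and 38.5%, beside 10.4%, 22.3% and 26.3% over all genes tested. Otulin had the largest change of the 4 (-2.78 ± 0.92), with NP+ B cell libraries at 191, 14.2 and 51.7 TPM. Irak3 (-2.22 ± 0.20) and Socs1 (-2.11 ± 0.32) were also lower. The fourth, Tnip3, passed the filter on low values only through NP+ B cells, at 1.03, 1.18 and 1.32 TPM against at most 0.577 elsewhere, so it could only be lower in PCs. Between the B cell groups 0 of the 13 were called higher in the reported fit. With the authors' log2 values 2 were called higher and 1 lower in NP+ B cells.

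Of 22 tested of 25 known targets of NF-κB in B cells, 4 (18.2%) were higher and 4 (18.2%) lower in NP+ B cells, beside 8.13% and 10.4% over all genes tested, and 14 were not called. Their median log2 change was -0.05, and that of all genes was -0.16. Cd80, a costimulatory ligand, and Fas, a death receptor, were the most raised (2.66 ± 0.27 and 2.13 ± 0.18). With the offset of 0.5 TPM the chemokine receptor Ccr7 was the most reduced (-1.94 ± 0.11). By mean TPM Ccl4 was reduced more (1.86 in naive and 0.125 in NP+ B cells, against 302.6 and 78.7 for Ccr7). The chemokine Ccl4 is among the 4 lower (-1.90 ± 0.39), but it passed the filter on low values only through naive cells, with at most 0.611 TPM in any other library, so it could only be lower. In PCs against NP+ B cells 13 (59.1%) were lower and 4 (18.2%) higher, beside 22.3% and 9.93%, with a median of -2.52 against -0.30 over all genes. With the same offset the largest reductions were those of Ltb (-7.84 ± 0.24), Ccr7 (-6.69 ± 0.34), Lta (-5.96 ± 0.39) and Cd83 (-4.84 ± 0.27). The 4 that were higher, named after their values were seen, were Irf4 (3.31 ± 0.25), a regulator of PC fate with other inputs than NF-κB, Cflar (1.39 ± 0.13), Bcl2l1 (1.33 ± 0.23) and Slc39a8 (1.05 ± 0.41, at a TPM of at most 1.74 in every library). Of these 4, only Irf4 had a clearly higher mean TPM in PCs in the full table with columns as deposited (32.7 against 9.97). There Cflar had 42.3 in PCs against 49.1, Bcl2l1 7.59 against 9.35 and Slc39a8 0.369 against 0.365. Those columns sum to less in PCs, so the direction for Cflar and Bcl2l1 depends on whether they are scaled to their sums. Against naive cells 14 targets, Ccl4 among them, were lower in PCs and 3 higher. Reads of the Bcl2a1 genes, which are near-identical copies, cannot be divided with certainty.

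**Figure D5:**
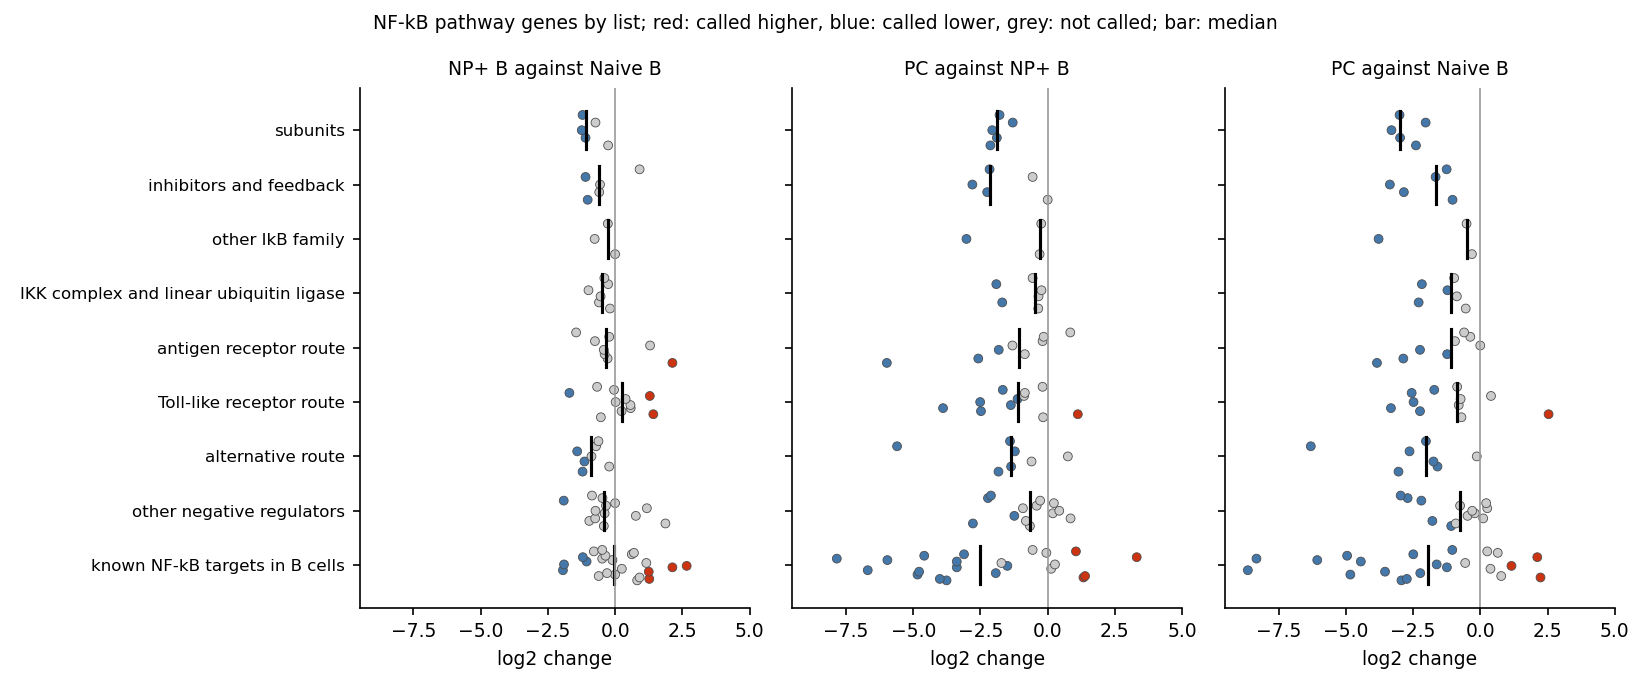
The log2 change (x axis) of each tested gene by list (y axis) in the 3 comparisons. Red and blue points were called higher and lower, grey points were not called and black bars are list medians, which for the 5 subunits are -1.10, -1.89 and -2.98.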

How the data were processed

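RNA was measured in 9 libraries of sorted splenic cells, grouped by their labels into naive B cells, NP-specific (NP+) B cells and plasma cells (PCs). cDNA was made with the SMART-Seq v4 kit and libraries with Nextera XT. The deposited TPM values were made by the authors by pseudoalignment with kallisto. The submitters' processing notes name mm10, and the transcript annotation is not given in the sources used here. The authors also deposited log2 values from voom, which give estimated counts per gene, from which library sizes were read. Gene positions are from GENCODE annotation of GRCm38, the same assembly as mm10.

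TPM from the table without Ig genes was passed to voom and limma 3.58.1 (R 4.3.3), as in the study's methods, with all 9 libraries, 3 group means and no block. The filter kept genes at 1 TPM or more in 3 or more libraries, and p-values were adjusted over all of them by the Benjamini-Hochberg method. Log2 changes use an offset of 0.5 TPM, so they understate the change of low genes. Shares and ratios were compared by two-sided exact permutation tests. Alternatives were the full table, other scalings, filters, offsets and inputs, a replicate block and leaving out libraries. The method was also run on simulated data, and no result given here rests on that. The table columns held 0 samples of other series.

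The members and lists were chosen with earlier results of these data known. All members are named, with at most 4 called genes per list and comparison by size of change, or by role, and the 2 genes most alike to each member. Some results under this rule are not reported here.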

Additional observations from a re-analysis of the deposited data

How the results depend on the processing

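No member changed sign where it was called in the reported fit, and the uncalled Nfkbia change between PCs and NP+ B cells ranged from -1.21 to 0.38. With median-of-ratios scaling the members called in NP+ against naive cells were 2 lower and 1 higher (Traf1), since the changes of Nfkb2, Nfkbia and Tnfaip3 became -0.98, -0.91 and -0.99. That scaling moved the median of all genes by 0.11, 0.38 and 0.49 in the 3 comparisons, and quantile normalization by 0.08, 0.30 and 0.40. The genes called higher and lower were 1048 and 1340, 1280 and 2870, and 1473 and 3397 in the reported fit, 1258 and 1022, 2023 and 1788, and 2349 and 1814 with median-of-ratios scaling, 1157 and 976, 1795 and 1843, and 2063 and 2047 with quantile normalization, and 420 and 7355 (PCs against NP+ B cells) and 551 and 7943 (PCs against naive cells) with Ig genes kept. Genes called in all were 2388, 4150 and 4870, became 1179, 2640 and 2965 under a filter on mean TPM of 10, where fewer genes were tested, and 7775 and 8494 for the PC comparisons with Ig genes kept. Leaving out 1 library gave 3 to 5 members lower and 0 to 1 higher in NP+ against naive cells, with 3 lower and 1 higher without NP+ B cell replicate 3, and 9 to 10 lower in PCs against naive cells. With estimated counts, or the authors' log2 values, the Nfkbia change was -0.99 in the first comparison and -0.93 in PCs against naive cells. Leaving out 1 library, the difference between PCs and NP+ B cells was 7.59 to 11.7 points for the Rela share and 1.07 to 1.59 for the log2 ratio of Nfkbia to Rela. The cause of these differences was not tested.

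Same-numbered libraries did not deviate together (0 of 9 pairs with a correlation over 0.1, from -0.075 to 0.068), so the numbers were not taken as pairs. With a replicate block, 2453, 4238 and 4898 genes and 5, 8 and 10 members were called. Without NP+ B cell replicate 2 and PC replicate 3, an alternative chosen after seeing the data, 2757, 4298 and 4897 genes were called. In that setting 5, 8 and 10 members were called lower.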
